A study of Mus musculus with 15 samples.

Results

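The 8 genes described here are glial markers of the heart and the genes of 2 neurotrophin pairs: Sox10, Cdh19, Mbp, Ngfr, Ntf3, Ntrk3, Bdnf and Ntrk2. They were taken by symbol from a table of raw read counts of 47069 genes, and each symbol matched 1 row. Messenger RNA was measured in left ventricle tissue of C57BL/6 mice, in 15 libraries from 3 groups of 5. The PBS and rHCI groups had a myocardial infarct, and 7 days later an injection into the heart muscle, of buffered saline in the former and of rHCI, a hydrogel of recombinant human collagen type I, in the latter. Their hearts were taken 2 days after the injection. The Sham group had a sham operation and no treatment and was taken at a matched age of 10 weeks, so the infarct and the injection cannot be told apart in any comparison with it. All hearts were flushed with saline and frozen, and no transgene or deletion is named for any group.

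Schwann cells are the glia of peripheral nerves. Most axons of the cardiac autonomic nerves lie in non-myelinating Schwann cells, and a smaller number of fibres carry myelin. Neurotrophins are secreted growth factors for neurons: each is made as a precursor, each binds a preferred Trk receptor kinase, and all of them also bind the receptor p75, the product of Ngfr. Schwann cells of an injured nerve are known to take on a repair state in which they make several such factors.

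The libraries held 32978702 to 103356830 counts. In the descriptions 12 of the 15 shared 1 number, which was read as a sequencing run although the labels do not explain it. These 12 are called the shared run below. All 8 genes were low: the lowest count of any of them in any library was 40 and the highest was 1146. Levels are given as CPM, read counts divided by the library total and by a TMM factor that corrects the total for composition. One library stood apart from the rest: PBS 6 had 44.6 CPM of Sftpc and 11.9 CPM of Sftpb, lung surfactant genes with at most 7 counts of Sftpc in any other library. Mbp, Bdnf and Ntf3 are therefore also given without PBS 6, whose omission left the counts of higher and lower genes in the myelin, repair, neurotrophin, adaptor, protease, GDNF, neuregulin and neuronal lists below as they were for PBS against sham. Markers of oligodendrocytes, the myelinating glia of the brain, were almost absent, with 1 count of Olig2, 1 of Ermn and 2 of Opalin over all 15 libraries together. In whole tissue, fewer cells of a type and less RNA per cell cannot be told apart.

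Of the 8 genes, Mbp and Bdnf were higher in both infarcted groups than in sham hearts, Ntf3 was lower in the PBS group, and Sox10, Cdh19, Ntrk3 and Ntrk2 passed the threshold in no comparison. Ngfr lay between, and 1 of its sham libraries was as high as the infarcted hearts. All 8 passed the filter on low counts in each comparison. In PBS against sham, edgeR's quasi-likelihood test called 2 of 8 higher and 1 lower, at an adjusted p under 0.05, where 71.4% of the 16207 genes tested were called, 36.5% higher and 34.9% lower. In rHCI against sham 2 of 8 were higher and 0 lower, beside 63.9% of 16076 genes called, 34.1% higher and 29.7% lower. The members' share is thus no larger than that of all genes in either comparison. The 2 comparisons share the sham libraries, so they are not independent of each other. The median log2 fold change of the 8 genes was 0.04 for PBS and 0.30 for rHCI, against -0.01 and 0.00 over all genes tested.

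**Figure D1:**
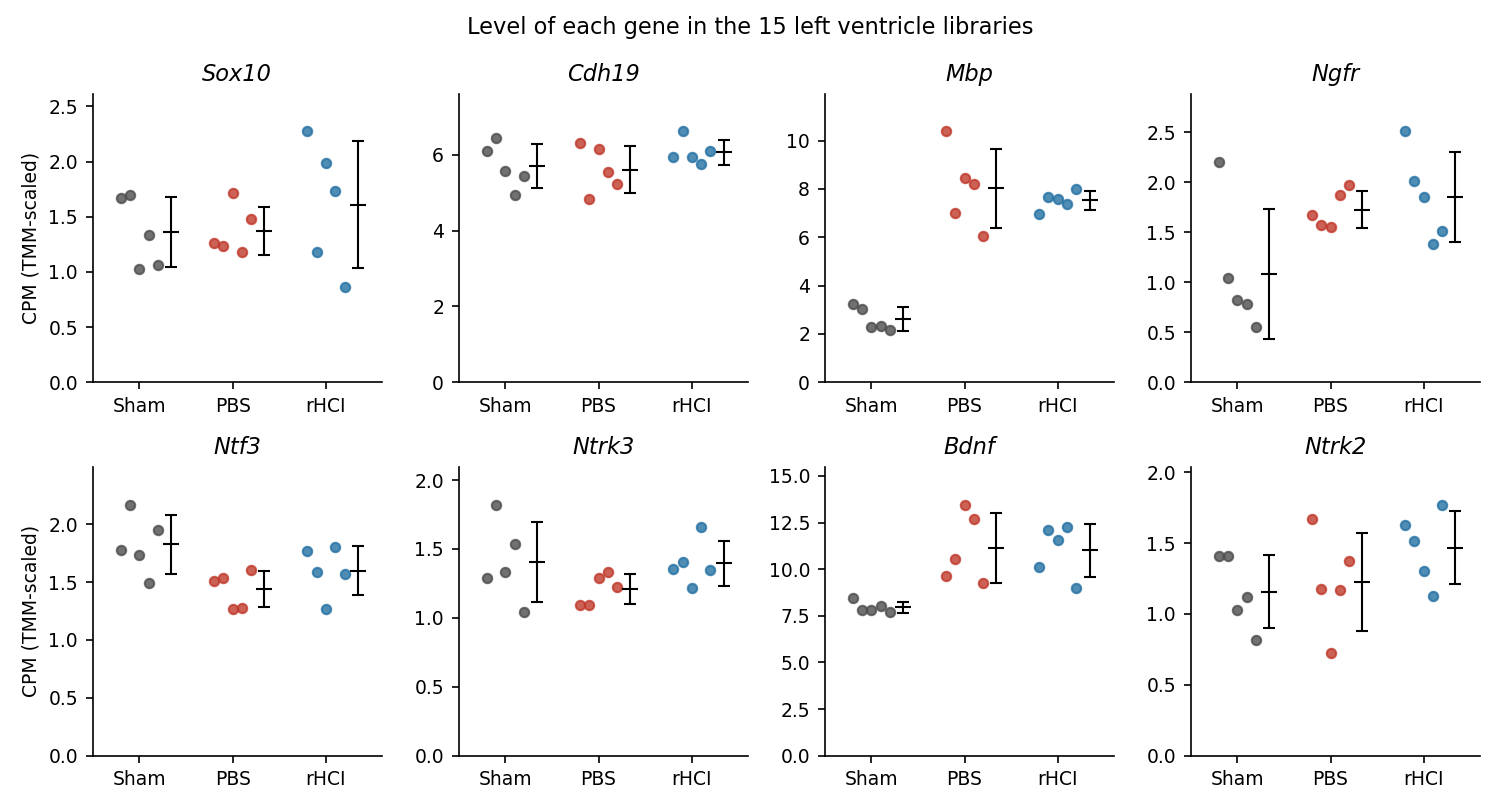
Levels of the 8 genes in CPM (vertical axes, from 0, TMM-scaled) in each of the 15 libraries, by group (horizontal axes). Points are libraries, and the mark and bar beside them are the mean and SD (n = 5). Mbp and Bdnf are the genes whose sham libraries all lie below every infarcted library, and Ngfr has 1 sham library at 2.21 CPM, above all others of its group.

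Sox10 (ENSMUSG00000033006, GRCm38 chr15:79154908-79165240, minus strand), the transcription factor that Schwann cells and their precursors depend on, was present in all groups. Its means were 1.36 CPM in sham, 1.37 in PBS and 1.61 in rHCI hearts. It measured 1.67, 1.70, 1.03, 1.34 and 1.07 CPM in Sham 16, 17, 18, 19 and 20. The PBS libraries 2, 6, 9, 12 and 14 had 1.26, 1.23, 1.71, 1.18 and 1.48 CPM of Sox10. Sox10 reached 2.28, 1.18, 1.99, 1.74 and 0.867 CPM in rHCI 1, 3, 7, 11 and 13. The 3 groups overlapped, and the rHCI group was the most spread, with both the highest and the lowest library of the 15. The log2 fold change of Sox10 was 0.01 ± 0.18 (SE) for PBS against sham, with a 95% interval of -0.38 to 0.39 and an adjusted p of 0.971 in edgeR. For rHCI against sham it was 0.25 ± 0.25, with an interval of -0.30 to 0.81 and an adjusted p of 0.395. Neither interval shows that the groups were alike.

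Cdh19 (ENSMUSG00000047216, GRCm38 chr1:110888326-110977584, minus strand), a cadherin of Schwann cell precursors and non-myelinating Schwann cells, had the tightest interval of the glial markers. In the order of libraries above, the sham hearts had 6.11, 6.45, 5.58, 4.94 and 5.43 CPM of Cdh19. The PBS hearts had 6.31, 4.82, 6.14, 5.55 and 5.24 CPM of Cdh19, and the rHCI hearts 5.95, 6.62, 5.94, 5.76 and 6.09 CPM. The groups overlapped throughout. The log2 fold change of Cdh19 was -0.03 ± 0.10 for PBS against sham, with a 95% interval of -0.25 to 0.18 (adjusted p = 0.773, edgeR). For rHCI against sham it was 0.10 ± 0.09, with an interval of -0.09 to 0.28 (adjusted p = 0.332, edgeR). Scaling by the library total alone moved the median of all genes by 0.27 for PBS and by 0.22 for rHCI against sham, and Cdh19 moved with it, to 0.24 and 0.32, so that it passed the threshold in the rHCI group (adjusted p = 0.0133, edgeR). The same scaling changed the split of all genes from 5921 higher and 5653 lower to 8938 and 2610 for PBS, and from 5487 and 4781 to 8011 and 2128 for rHCI.

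Mbp (ENSMUSG00000041607, GRCm38 chr18:82475146-82585637, plus strand) encodes myelin basic protein, which compacts the myelin sheath, and it changed the most of the 8. The sham hearts had 3.23, 3.05, 2.27, 2.34 and 2.15 CPM of Mbp. The PBS hearts had 10.4, 7.0, 8.43, 8.20 and 6.07 CPM of Mbp, and the rHCI hearts 6.97, 7.68, 7.59, 7.39 and 8.01 CPM. Every infarcted heart was above every sham heart, and the rHCI group was the more uniform of the infarcted groups, at 7.53 ± 0.385 CPM against 8.02 ± 1.63 CPM (SD, n = 5 each). Mbp was 3.05-fold higher in PBS than in sham hearts (95% interval 2.41 to 3.87, adjusted p = 1.1e-06, edgeR), and 2.90-fold higher in rHCI hearts (2.42 to 3.48, adjusted p = 5.2e-07). Mbp and Bdnf were the 2 of 8 genes whose groups did not overlap in each of these comparisons, where 59.0% and 49.4% of all genes tested had groups without overlap, 31.6% and 27.1% with every infarcted library the higher. Without PBS 6 the log2 fold change of Mbp was 1.66, and 2 of the 8 genes were again higher and 1 lower. Among the libraries of the shared run the change of Mbp was 1.62 for PBS and 1.53 for rHCI, beside 1.61 and 1.54 over all libraries.

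The rise of Mbp was also seen relative to Sox10 in the same library, a measure that does not depend on scaling. The ratio of Mbp to Sox10 counts was 1.93, 1.79, 2.19, 1.74 and 2.02 in the sham hearts. In the PBS hearts the ratio of Mbp to Sox10 was 8.16, 5.67, 4.91, 6.90 and 4.09, and in the rHCI hearts 3.05, 6.44, 3.81, 4.24 and 9.15. No infarcted library fell into the sham range. Averaged on the log2 scale, the ratio was 2.99-fold higher in PBS and 2.56-fold higher in rHCI hearts (two-sided exact permutation test, p = 0.00794 for each, the smallest that 5 against 5 allows, and 0.0417 adjusted over 21 ratio tests). With any 1 library left out the ratio no longer passed: 4 hearts against 5 allow no p under 0.0159, and the lowest adjusted p without 1 sham library was 0.0667 (exact permutation test). The ratios of Cdh19 and Ntrk3 to Sox10, of Ntf3 to Ntrk3 and of Bdnf to Ntrk2 did not pass the threshold in any comparison. The ratio of Ngfr to Sox10, averaged in the same way, was 1.74-fold higher in PBS hearts, which did not pass either (exact permutation p = 0.0238, adjusted p = 0.1).

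**Figure D2:**
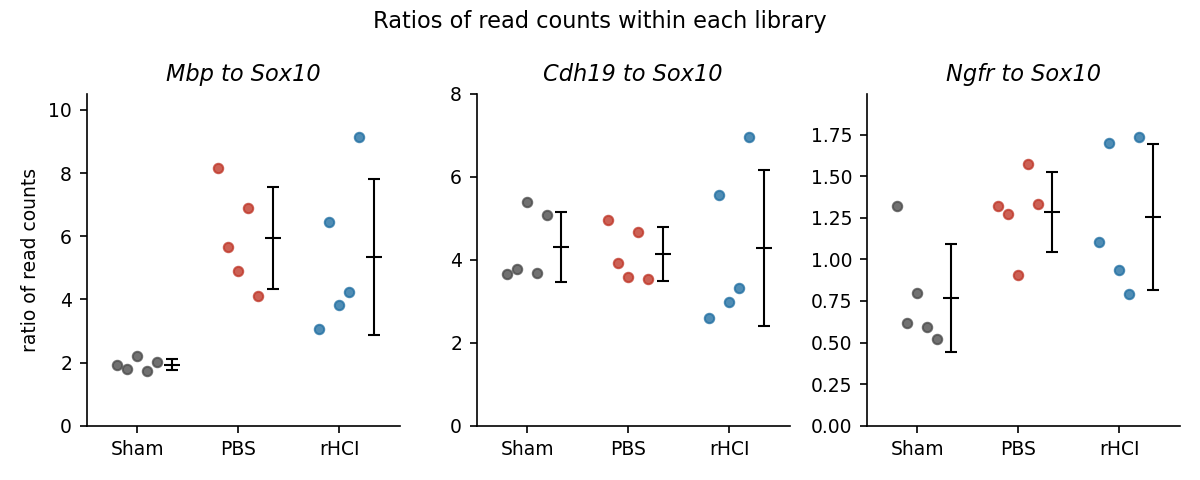
Ratios of read counts between 2 genes within each library (vertical axes, from 0) by group (horizontal axes). Points are libraries, and the mark and bar beside them are the mean and SD (n = 5). The Mbp to Sox10 ratio lies between 1.74 and 2.19 in all sham libraries and at 3.05 or above in all infarcted ones, whereas the Cdh19 to Sox10 ratio overlaps between all groups.

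The gene count of Mbp sums 16 annotated transcripts. Besides the myelin proteins, the gene is known to encode the Golli proteins from an upstream start, and these are also made in immune cells, so the counts do not show which product rose. Macrophage markers rose in the same hearts: 10 of 10 were called higher in each infarcted group, and their summed level was 201 to 245 CPM in sham, 686 to 933 in PBS and 683 to 874 in rHCI libraries. Of the lymphocyte markers, 9 of 10 were called higher in each. With 1 library left out the count was 8 to 10 for PBS and 6 to 9 for rHCI, and in the shared run it was 6 for rHCI. The 2 genes whose pattern over the 15 libraries was most like that of Mbp were Aif1 and Ifi204, out of 14242 genes compared. Their root mean square difference from Mbp was 0.138 and 0.147 on the log2 scale, after each gene was centred on its own mean. Aif1 is a known marker of macrophages. The part of immune cells in the Mbp counts was not tested.

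Genes of the myelin sheath, with Mbp among them, moved unevenly. The 12 that could be tested, of 17 listed, held 8 that were higher and 2 that were lower in PBS hearts, and 8 higher and 1 lower in rHCI hearts. Their median log2 fold change was 0.96 and 0.92. These counts, and those of the lists that follow, stand beside 36.5% of all genes higher and 34.9% lower for PBS, and 34.1% and 29.7% for rHCI. A gene near 0 in the sham libraries is tested only through the infarcted ones and could not be called lower. Egr2, a transcription factor of myelination that is also induced in macrophages and by many stimuli, rose from 0.738 ± 0.245 CPM in sham to 5.84 ± 1.84 in PBS and 5.47 ± 2.05 in rHCI hearts. Mag, the myelin-associated glycoprotein, rose 5.37-fold in PBS hearts (95% interval 3.18 to 9.09, adjusted p = 3.5e-05, edgeR), but from only 24 counts over the 5 sham libraries to 141 over the 5 PBS libraries. Drp2, a member of the dystroglycan complex of myelinating Schwann cells, rose 2.50-fold. These genes were named for the size of their change and do not stand for the whole list. Mal, of the same list and picked after its values were seen, went the other way. It had 16.1 ± 0.930 CPM in sham, 13.2 ± 1.10 in PBS and 12.8 ± 0.864 in rHCI hearts (SD, n = 5). By library total alone 8 of the 12 were still higher in each comparison and 0 were lower.

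The 20 pan-glial and non-myelinating genes, which include Sox10, Cdh19 and Ngfr, went in both directions. Of the 17 tested in PBS against sham, 5 were higher and 5 were lower, and the median log2 fold change was 0.01. Without PBS 6, 19 were tested, of which 6 were higher and 5 lower, with a median of 0.05. In rHCI against sham 7 of 18 were higher and 2 lower, with a median of 0.26, but among the libraries of the shared run 4 of 19 were higher and 3 lower, with a median of 0.10. Ncam1, a neural adhesion molecule that cardiac muscle cells also make, rose 4.37-fold in PBS hearts. S100b, a calcium-binding protein of glia, rose from 0.919 ± 0.194 to 1.55 ± 0.227 CPM (SD, n = 5, log2 fold change 0.74, adjusted p = 0.00142, edgeR). Kcna1, a potassium channel of axons and glia, fell by 1.42 on the log2 scale. Erbb3, the neuregulin receptor of Schwann cells, had 18.1 ± 2.28 CPM in sham and 16 ± 1.25 in PBS hearts (adjusted p = 0.0769, edgeR). By library total alone the split was 8 higher and 1 lower for PBS, and 10 and 0 for rHCI.

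Ngfr (ENSMUSG00000000120, GRCm38 chr11:95568818-95587735, minus strand) encodes p75, the receptor shared by all neurotrophins, which Schwann cells make more of when they lose contact with axons. The sham hearts had 2.21, 1.04, 0.819, 0.787 and 0.550 CPM of Ngfr. The PBS hearts had 1.67, 1.57, 1.55, 1.87 and 1.97 CPM of Ngfr, and the rHCI hearts 2.51, 2.02, 1.85, 1.38 and 1.51 CPM. The other 4 sham hearts were below all 10 infarcted ones, whereas Sham 16 exceeded 9 of them. Ngfr was 1.58-fold higher in PBS (95% interval 1.01 to 2.48, adjusted p = 0.065, edgeR) and 1.71-fold higher in rHCI than in sham hearts (1.04 to 2.80, adjusted p = 0.0564), and neither passed. Without Sham 16, an omission chosen after its value was seen, the log2 fold change was 1.13 for PBS and 1.23 for rHCI (adjusted p = 0.000175 and 0.000859, edgeR). Without Sham 20 it was 0.47 and 0.58 (adjusted p = 0.146 and 0.123, edgeR), and neither passed without Sham 17, 18 or 19. With no library left out, Ngfr passed in both comparisons by library total alone, with DESeq2 and with all 15 libraries in 1 fit. In the shared run the values were 0.61 and 0.55 (adjusted p = 0.15 and 0.231, edgeR).

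Bdnf (ENSMUSG00000048482, GRCm38 chr2:109674700-109727007, plus strand), the brain-derived neurotrophic factor, is transcribed from several starts, each of which gives a different first exon, and a gene count sums them all. RefSeq's table of promoters for build GRCm38.p6 held windows for 4 of the 8 genes, of which 7 belonged to Bdnf, 2 to Ntf3, 1 to Ngfr and 1 to Ntrk2. The 250 bases before a start are shown for Ngfr and for 3 starts of Bdnf, to let the reader see how unlike the upstream stretches summed in 1 count are. Capitals mark the GC box GGGCGG and the letters TCACGTCA, both searched on both strands. The latter differ by 1 base from the cyclic AMP response element TGACGTCA and belong to a known calcium-responsive element of Bdnf. They were added to the search after the sequence had been seen.
Ngfr, chr11:95587699-95587948, minus strand: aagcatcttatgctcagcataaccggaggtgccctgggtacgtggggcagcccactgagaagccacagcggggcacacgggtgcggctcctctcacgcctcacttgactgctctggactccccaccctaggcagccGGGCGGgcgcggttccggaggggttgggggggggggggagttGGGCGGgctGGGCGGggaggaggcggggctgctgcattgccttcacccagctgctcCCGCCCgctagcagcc
Bdnf, window 1, chr2:109674450-109674699, plus strand: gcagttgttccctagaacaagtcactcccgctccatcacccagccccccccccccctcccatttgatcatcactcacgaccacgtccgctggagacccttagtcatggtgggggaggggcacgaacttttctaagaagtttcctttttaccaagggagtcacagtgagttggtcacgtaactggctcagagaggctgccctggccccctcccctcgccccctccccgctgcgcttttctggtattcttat
Bdnf, window 2, chr2:109676782-109677031, plus strand: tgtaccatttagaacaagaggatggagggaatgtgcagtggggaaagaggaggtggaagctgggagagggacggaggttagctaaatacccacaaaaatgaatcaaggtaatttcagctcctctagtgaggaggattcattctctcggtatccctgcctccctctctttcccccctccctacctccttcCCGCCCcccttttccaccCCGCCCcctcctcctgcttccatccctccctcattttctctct
Bdnf, window 3, chr2:109692186-109692435, plus strand: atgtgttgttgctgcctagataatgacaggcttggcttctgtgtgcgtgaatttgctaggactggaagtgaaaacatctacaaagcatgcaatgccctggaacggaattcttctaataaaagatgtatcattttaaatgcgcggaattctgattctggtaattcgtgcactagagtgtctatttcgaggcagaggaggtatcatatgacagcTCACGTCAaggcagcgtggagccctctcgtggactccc

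The Ngfr stretch was 70.4% G and C and held 4 GC boxes, whereas that of Bdnf window 3 was 45.6% G and C and held none. In that stretch TCACGTCA began 38 bases before the start. Over the 32817 promoter windows of 300 bases in the table, 35.6% held a GC box, 0.442% held TCACGTCA and 1.79% held TGACGTCA, which was in none of the 11 windows of these genes. A match is a description of the letters, and the gene counts do not tell from which start Bdnf was transcribed.

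Bdnf rose in both infarcted groups by a smaller step than Mbp. The sham hearts had 8.43, 7.80, 7.79, 8.05 and 7.73 CPM of Bdnf, the narrowest spread relative to the mean of any of the 8 genes in the sham group. The PBS hearts had 9.62, 10.5, 13.5, 12.7 and 9.27 CPM of Bdnf, and the rHCI hearts 10.1, 12.1, 11.5, 12.3 and 9.01 CPM. All 10 infarcted hearts were above all 5 sham hearts. Bdnf was 1.40-fold higher in PBS (95% interval 1.2 to 1.62, adjusted p = 0.000713, edgeR) and 1.39-fold higher in rHCI hearts (1.22 to 1.59, adjusted p = 0.000482). The log2 fold change was 0.50 without PBS 6 and 0.51 for each group within the shared run. Exons of Bdnf overlap those of Gm45346 on the opposite strand over 896 bases, and whether the counting used strand is not given in the sources used here, so reads of the 2 cannot be told apart.

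Ntrk2 (ENSMUSG00000055254, GRCm38 chr13:58806569-59133970, plus strand) encodes TrkB, the receptor kinase of BDNF, and no change of it passed the threshold. It had 1.16 ± 0.256 CPM in sham, 1.22 ± 0.346 in PBS and 1.47 ± 0.257 in rHCI hearts (SD, n = 5). The libraries ran from 0.819 to 1.41 CPM of Ntrk2 in sham, from 0.723 to 1.67 in PBS and from 1.13 to 1.77 in rHCI hearts, and the groups overlapped. The log2 fold change of Ntrk2 was 0.07 for PBS against sham (95% interval -0.40 to 0.54) and 0.35 for rHCI against sham (-0.05 to 0.75, adjusted p = 0.112, edgeR). By library total alone the latter was 0.57 (adjusted p = 0.0192, edgeR). The gene is known for a full-length kinase and for truncated forms that lack it, which the counts of its 10 annotated transcripts do not separate.

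Ntf3 (ENSMUSG00000049107, GRCm38 chr6:126101412-126166910, minus strand) encodes neurotrophin-3, the preferred ligand of TrkC. The sham hearts had 1.78, 2.17, 1.73, 1.5 and 1.95 CPM of Ntf3. The PBS hearts had 1.51, 1.53, 1.27, 1.28 and 1.61 CPM of Ntf3, and the rHCI hearts 1.77, 1.59, 1.27, 1.80 and 1.57 CPM. The groups overlapped, since Sham 19 was below 3 of the PBS hearts. Ntf3 fell by 0.35 on the log2 scale in PBS hearts (SE 0.13, adjusted p = 0.0298, edgeR), and its change in rHCI hearts was -0.18 (95% interval -0.48 to 0.12). Without PBS 6 the change of Ntf3 in PBS hearts was -0.38 (adjusted p = 0.0362, edgeR). The call for PBS did not hold without PBS 9, PBS 12, Sham 17 or Sham 20 (adjusted p = 0.0716, 0.0705, 0.0734 and 0.0631, edgeR), with no filter on low counts (0.055), or by library total alone, where the change was -0.08 (0.615).

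Ntrk3 (ENSMUSG00000059146, GRCm38 chr7:78175959-78738012, minus strand) encodes TrkC, the receptor of neurotrophin-3. It had 1.40 ± 0.291 CPM in sham, 1.21 ± 0.110 in PBS and 1.40 ± 0.162 in rHCI hearts (SD, n = 5), and the libraries ran from 1.04 to 1.82, from 1.09 to 1.33 and from 1.22 to 1.66 CPM of Ntrk3. The log2 fold change of Ntrk3 was -0.21 for PBS (95% interval -0.54 to 0.13, adjusted p = 0.252, edgeR) and 0.01 for rHCI against sham (-0.34 to 0.36). Like Ntrk2, the gene gives full-length and truncated receptors, and its 20 annotated transcripts were summed.

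Per kilobase of exon, the ligands and markers stood well above the Trk receptors in every group. In sham hearts the order was Cdh19 (1.33 ± 0.138 CPM per kilobase, SD), Bdnf (1.28 ± 0.0468), Ntf3 (1.06 ± 0.147), Sox10 (0.446 ± 0.104), Ngfr (0.314 ± 0.189), Mbp (0.308 ± 0.0582), Ntrk2 (0.0601 ± 0.0133) and Ntrk3 (0.0466 ± 0.00965). Cdh19 and Bdnf, Sox10 and Ngfr, Ngfr and Mbp, and Ntrk2 and Ntrk3 were neighbours whose means differed by less than the sum of their SDs. In PBS hearts Bdnf came first at 1.79 ± 0.301 CPM per kilobase, and Mbp stood at rank 3, at 0.947 ± 0.193, not beyond its spread from Ntf3 at 0.840 ± 0.0911. In rHCI hearts Ntf3 had rank 3, at 0.933 ± 0.123, and Mbp rank 4, at 0.889 ± 0.0455, again within the spread. These lengths join the exons of all annotated transcripts, 30170 bases for Ntrk3 and 19292 for Ntrk2, which lowers the values of genes with many alternative exons.

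**Figure D3:**
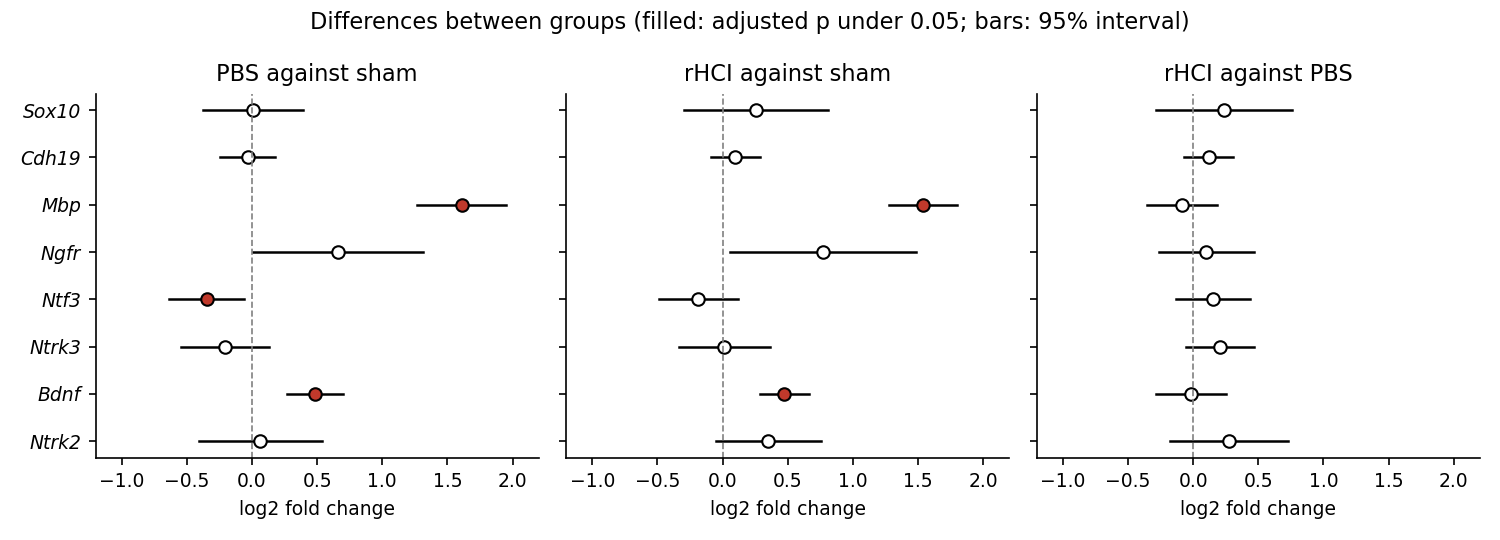
Log2 fold changes (horizontal axes) of the 8 genes (vertical axis) in the 3 comparisons, from edgeR's quasi-likelihood test, with 95% intervals as bars. Filled points have an adjusted p under 0.05: Mbp, Bdnf and Ntf3 for PBS against sham, Mbp and Bdnf for rHCI against sham, and none for rHCI against PBS, where all points lie between -0.08 and 0.28.

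The comparison of rHCI with PBS asks what the hydrogel changed in infarcted hearts. None of the 8 genes passed (0 of 8, beside 0% of 16383 genes tested in edgeR), and 0 of 8 had an unadjusted p under 0.05, against 579 of all genes. The groups overlapped for all 8, beside 0.501% of genes without overlap, 0.201% with every rHCI library the higher. DESeq2 called 3 genes higher and 3 lower over the whole table, and limma-voom 0 higher and 3 lower. The largest difference among the 8 was that of Ntrk2, 0.28 on the log2 scale, with a 95% interval of -0.17 to 0.73 (adjusted p = 0.871, edgeR). The interval was -0.35 to 0.19 for Mbp, -0.28 to 0.25 for Bdnf, -0.07 to 0.31 for Cdh19 and -0.05 to 0.47 for Ntrk3. It was -0.29 to 0.76 for Sox10, -0.26 to 0.46 for Ngfr and -0.13 to 0.43 for Ntf3. These intervals do not show that the groups were alike. No gene of the myelin, glial, repair, neurotrophin, GDNF, neuregulin or neuronal lists passed in this comparison either. Artn, with 0.451 ± 0.120 CPM in PBS and 0.232 ± 0.0926 in rHCI hearts (SD, n = 5), had an unadjusted p of 0.0047 and an adjusted p of 0.871 (edgeR).

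Of 12 neurotrophins and receptors of that family that were tested, with Bdnf, Ntf3, Ntrk2, Ntrk3 and Ngfr among them, 6 were higher and 3 lower in PBS hearts, and 5 higher and 1 lower in rHCI hearts. By library total alone these counts were 7 and 0, and 8 and 0. Ntf5, which encodes neurotrophin-4, another ligand of TrkB, rose 1.75-fold in PBS hearts (adjusted p = 0.00806, edgeR), and its fold in rHCI hearts was 1.39 (adjusted p = 0.0761, edgeR).

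Nradd, a relative of p75, rose 2.70-fold in PBS hearts and Sorcs1, a sorting receptor of the sortilin family, 1.91-fold. Sort1, sortilin, the co-receptor of p75 for neurotrophin precursors, fell by 0.25 on the log2 scale in PBS hearts (adjusted p = 0.00825, edgeR), and in rHCI hearts its change was -0.09. By library total alone the change of Sort1 was 0.02 in PBS and 0.14 in rHCI hearts, neither past the threshold.

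Among adaptors that carry signals from Trk receptors and p75, 8 of 19 tested were higher and 5 lower in each infarcted group, which is close to the shares of all genes given above. With scaling by library total alone the counts were 12 and 2 for PBS, and 10 and 1 for rHCI. Sh2b2, an adaptor of receptor kinases, rose 5.94-fold, Lingo1, a co-receptor of p75, 3.99-fold and Shc2, an adaptor of Trk receptors, 3.67-fold in PBS hearts. Bex1, a protein reported to bind p75, fell by 1.02 on the log2 scale. Of the enzymes that cut neurotrophin precursors, and their regulators, 8 of 11 were higher and 1 lower in PBS hearts, and 9 higher and 0 lower in rHCI hearts. Mmp2, a matrix protease, rose from 63.5 ± 9.04 CPM in sham to 374 ± 45.4 in PBS hearts (SD, n = 5). Mmp9 rose 4.96-fold and Plau, the urokinase plasminogen activator, 4.63-fold. Matrix and fibroblast markers moved with these genes: 10 of 10 were higher, with a summed level of 1187 to 1503 CPM in sham and 15754 to 23314 in PBS libraries, and their part was not tested.

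**Figure D4:**
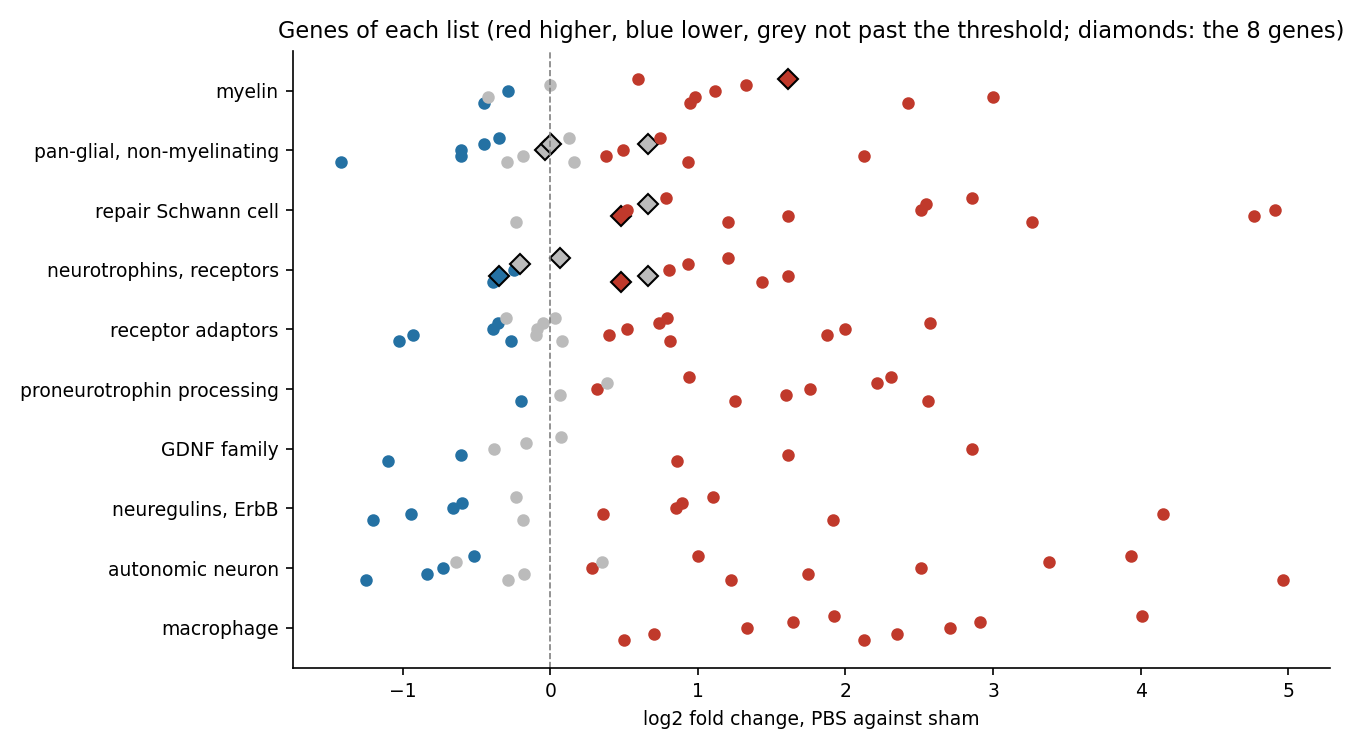
Log2 fold change for PBS against sham (horizontal axis) of the tested genes of 10 lists (vertical axis), with points spread vertically for legibility. Red is called higher, blue called lower and grey not past the threshold, and diamonds are members of the 8. The repair and macrophage lists hold no blue point, whereas the pan-glial list holds 5 red and 5 blue ones.

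Genes of the repair state of Schwann cells were mostly higher. Of 13 tested, with Bdnf and Ngfr among them, 11 were higher and 0 lower in each infarcted group, and the median log2 fold change was 1.61 for PBS and 1.60 for rHCI. Il6, an inflammatory cytokine, and Igfbp2, a binding protein of insulin-like growth factors, changed most, 30.0-fold and 27.2-fold in PBS hearts, but from 9 and 12 counts over the 5 sham libraries. At such sham counts both passed the filter on low counts only through the infarcted libraries, so neither could be called lower. To that extent the split of this list was set by the filter. Runx2, a transcription factor also known from bone and activated fibroblasts, rose 9.60-fold. Artn and Gdnf, ligands of the GDNF family that act on neurons, rose 7.25-fold and 3.05-fold in PBS hearts. Artn had only 19 counts over the 5 sham libraries and 164 over the 5 PBS libraries. In PBS against sham it too passed the filter only through the PBS libraries and could not be called lower. Without Sham 17 the log2 fold change of Artn moved from 2.86 to 3.69 for PBS and from 1.88 to 2.71 for rHCI. Several of these genes are also made by macrophages and fibroblasts, whose markers rose in the same hearts as given above, and the part of each cell type was not tested. Sox2, Shh and Olig1, which belong to the same state, were too low to be tested.

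In the GDNF family as a whole, 3 of 8 genes were higher and 2 lower in PBS hearts. Artn, with the limit of the filter given above, was among the higher ones. The receptor Gfra2 rose 1.82-fold and Gfra4 fell by 1.10 on the log2 scale. Among neuregulins, relatives of EGF and their receptors, which control Schwann cell survival and myelination, 6 of 12 were higher and 4 lower in each infarcted group. Nrg1 rose from 1.24 ± 0.230 to 4.66 ± 0.817 CPM in PBS hearts (SD, n = 5), and Ereg, epiregulin, rose 17.7-fold, while Nrg2 fell by 1.2 on the log2 scale. Hbegf, another ligand of EGF receptors, rose 2.15-fold.

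Transcripts known from neurons of the autonomic and sensory nerves differed widely in level. Th, the first enzyme of noradrenaline synthesis, had at most 4 counts in any library, and Chat, which makes acetylcholine, had 0 counts in all 15. Dbh, the last enzyme of noradrenaline synthesis, was readily counted, at 5.10 ± 1.28 CPM in sham, 4.51 ± 0.501 in PBS and 4.25 ± 0.740 in rHCI hearts (SD, n = 5). The summed level of the 26 neuronal genes listed was 115 to 160 CPM in sham, 79.7 to 99.3 in PBS and 85.1 to 96.2 in rHCI libraries. Every infarcted library was thus below every sham library, with medians of 124 CPM in sham, 90.7 in PBS and 89.4 in rHCI hearts. Hand2, a transcription factor that heart cells also make, gave most of the sum in sham hearts. Its mean, given below, fell by more than the median of the sum in each infarcted group. The lower sum therefore does not show a fall of the other listed genes.

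Single neuronal genes went both ways. Of 16 tested in PBS against sham, 8 were higher and 4 lower, with a median log2 fold change of 0.32. In rHCI against sham 4 of 13 were higher and 3 lower, with a median of -0.03, and leaving out 1 library gave 3 to 8 that were higher. Calca, the gene of calcitonin and of the sensory neuropeptide CGRP, had 4 counts over the 5 sham and 166 over the 5 PBS libraries, and Npy, neuropeptide Y, had 12 and 219. Both passed the filter on low counts only through the PBS libraries, so neither could be called lower. Tubb3, a tubulin of neurons, rose 10.4-fold and Gap43, a protein of growing axons, 5.69-fold in PBS hearts. Among the genes that fell, 3 were picked after their values were seen. Hand2 went from 98.8 ± 18.1 CPM in sham to 41.7 ± 5.15 in PBS and 42.2 ± 4.75 in rHCI hearts (SD, n = 5). Ddc, which makes dopamine from its precursor, fell by 0.73 on the log2 scale in PBS and by 0.54 in rHCI hearts. Tac1, the gene of substance P, fell by 0.52 in PBS hearts.

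The genes nearest in pattern to the other 7 over the 15 libraries are given as a description of likeness in level only. Bdnf was most like Pdgfd (root mean square difference 0.10), Spats2 (0.103) and Fam60a (0.107). Cdh19 was most like Pwwp2a (0.0800), Dek (0.101) and Ttc39b (0.104), and Ntf3 most like Pou2f1 (0.115), Odf2l (0.119) and Gtf3c1 (0.121). For Ntrk3 these genes were Ttc39a, Clec1a and Ano1, at 0.141 to 0.157. For Ntrk2 they were Il1rl1, Sv2a and Prox2os, at 0.210 to 0.253, and for Sox10 Kcna2, B3galt2 and Rps10-ps1, at 0.239 to 0.248. Ngfr had the least close neighbours, Sqle, H2-T10 and Sult5a1, at 0.289 to 0.295.

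Among the 10 infarcted hearts the 8 genes did not vary together beyond what the tests allow. Of 36 relations, between pairs of the 8 and of each with the mean of 10 cardiac muscle genes, 0 passed after adjustment. The lowest p was that of Bdnf and Ntrk2, a ligand and its receptor: hearts with more Bdnf had less Ntrk2 (Pearson's r = -0.757, permutation p = 0.0069, adjusted p = 0.248, n = 10). Spearman's rho was -0.842 (permutation p = 0.00385, adjusted p = 0.139). Without the 2 hearts farthest from the median of Bdnf, r was -0.557. Relative to the mean of each heart's own group r was -0.821 (permutation test, adjusted p = 0.0612), and by library total alone it was -0.611.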

How the data were processed

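Stranded mRNA libraries were made from left ventricle RNA, per the labels' protocols. The values used are the authors' deposited raw counts, in a single table whose columns all matched a sample (0 unmatched). As tools, the submitters' processing notes list Trimmomatic, STAR, Cufflinks and edgeR, and as builds GRCm38 and mm10, without saying what each was used for. Which program counted the reads, with which annotation and whether by strand, is not stated there. GENCODE M21 supplied positions and exon lengths for 46488 of 47069 identifiers.

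Groups came from the titles. The series' design text calls the 5 libraries of a group biological replicates, and replicate pairs differed by at least 10.7 chi-square units per gene over 30 pairs, so no library was counted as a repeat. Depth of 32978702 to 103356830 counts sets the counting error. The number read as the sequencing run stands in the descriptions without explanation.

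Each pair of groups was tested on its 10 libraries with edgeR 4.0.16 (TMM, filterByExpr, glmQLFit, glmQLFTest, two-sided, Benjamini-Hochberg over all genes tested, threshold 0.05) in R 4.3.3. Standard errors are the log2 fold change divided by the root of F. CPM used TMM factors from all 15 libraries. Ratios added 0.5 to each count and were compared by exact permutation tests, and relations used 100000 resamples (scipy 1.17.1). Scripts were tested on simulated counts. Alternatives were RLE factors, library total alone, DESeq2 1.42.0, limma-voom (limma 3.58.1), 2 other filters on low counts, 1 fit of all 15 libraries, the run as covariate or the shared run only, and each replicate left out. The ratios also used an added count of 2, and the relations also used library totals and deviations from group means.

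The 8 genes, the 19 lists beside them and the tests were chosen with earlier results of these data known. The rule for named genes took the 8, a fixed set that includes S100b, Erbb3, Ntf5 and Sort1, up to 4 genes of each list described, with the largest change for PBS against sham among those that passed with at least 0.1 CPM in the higher group, and the 3 genes most like each of the 8. Genes too low to be tested, and markers used to describe the libraries, were named besides. Some genes and ratios that the rule or the tests cover are not reported here, though they count in the totals of lists and tests. The lists of mural, endothelial, adipocyte, melanocyte and cardiomyocyte markers are given in the closing section.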

Additional observations from a re-analysis of the deposited data

How the results depend on the processing

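The calls of Mbp and Bdnf against sham held in each of the 19 alternatives of either comparison. With each replicate left out, the log2 fold change ran from 1.5 to 1.70 (PBS) and from 1.47 to 1.63 (rHCI) for Mbp, and from 0.41 to 0.55 and from 0.43 to 0.53 for Bdnf. No paired analysis was possible because the groups share no replicate numbers.

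Scaling by library total alone gave 8938 genes higher and 2610 lower, with 0 of the 8 lower, for PBS against sham. For rHCI against sham it gave 2128 genes lower, and 5 of the 8 higher: Mbp, Bdnf, Cdh19, Ngfr and Ntrk2. The scaling shifts all genes by construction. With no filter on low counts, 0 of the 8 were lower in PBS against sham, and leaving out replicates gave 0 to 1 lower; the cause was not tested. For rHCI against PBS, DESeq2 gave 3 genes higher and 3 lower, limma-voom 3 lower, and leaving out replicates 0 to 3 lower, with 3 without rHCI 13. Leaving out a replicate left 0 to 0 of the 4 ratios past the threshold. A comparison of 4 against 5 hearts allows no p under 0.0159, and comparisons that kept all their hearts were adjusted together with these.

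Among the genes named, 31 log2 fold changes changed sign, none of them past the threshold and none larger than 0.243, with an adjusted p of at least 0.0624 (edgeR, DESeq2 or limma). By library total alone, values against sham were 0.24 for Cdh19, 0.067 for Ntrk3, 0.089 for Erbb3 and 0.024 for Sort1 in PBS, and 0.034 for Ntf3, 0.047 for Erbb3 and 0.14 for Sort1 in rHCI hearts. With limma-voom they were -0.15 for Ntrk2 in PBS and 0.0029 for Sort1 in rHCI hearts, and with RLE factors -0.0068 and with DESeq2 -0.0010 for Ntrk3 in rHCI hearts. With each replicate left out, PBS against sham ran from -0.082 to 0.097 for Sox10, from -0.082 to 0.021 for Cdh19 and from -0.051 to 0.20 for Ntrk2, and rHCI against sham from -0.087 to 0.12 for Ntrk3. For rHCI against PBS the ranges were -0.17 to 0.022 for Mbp, -0.032 to 0.19 for Ngfr and -0.074 to 0.061 for Bdnf, and -0.22 to 0.063 for the log2 ratio of Ngfr to Sox10. Ngfr in that comparison was -0.070 with the run as covariate and -0.069 in the shared run.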

Other observations

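Cell type markers outside the nerve gave the following counts for PBS against sham and for rHCI against sham (edgeR, adjusted p under 0.05). Of 10 cardiac muscle genes, 9 were lower in each. Of 10 mural cell genes, 5 were higher in each, and 3 and 2 were lower. Endothelial genes held 5 and 4 of 10 that were higher, and 1 that was lower in each. Of 7 fat cell genes tested, 0 were higher, and 2 and 1 were lower. Of 5 melanocyte genes tested, a pigment lineage that also derives from the neural crest and depends on Sox10, 3 were higher in each: Mlana, Kit and Pmel. Without PBS 6 the count for PBS was 2, and Pmel no longer passed (log2 fold change 0.55, adjusted p = 0.0891, edgeR); it also lost its call without Sham 16 or Sham 20, and in rHCI hearts without any 1 of 7 libraries. Mitf, the regulator of that lineage that is also active in heart muscle, was lower in PBS hearts.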
